A study of Rattus norvegicus with 38 samples.

Results

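The 10 genes described here sense bacterial lipopolysaccharide (LPS) or feed back on the transcription factor NF-kB, and their RNA was counted in 38 rat livers. They are the receptors Tlr2 and Tlr4, the co-receptors Cd14 and Ly96, the adaptor Myd88, the kinase-like Irak3, the NF-kB inhibitors Nfkbia and Tnfaip3, and the NF-kB subunits Nfkb1 and Relb. They were chosen by gene symbol, and all 10 were found among the 31038 genes of the count table. All 10 also passed the filter on low counts, which left 14786 genes for testing. The rats were Sprague-Dawley, an outbred laboratory strain, and the livers were collected on day 28. Per the labels, rats were control (n = 5), were gavaged with EF at 2.5 g/kg (EF, n = 5), with EF and PF at 2.5 g/kg each (EF_PF, n = 5), or with EF at 2.5 g/kg and RD at 200 mg/kg (EF_RD, n = 4). The same 4 regimes were combined with an intraperitoneal injection of LPS: LPS by itself in 5 rats, with EF in 5 (LPS_EF), with EF and PF in 4 (LPS_EF_PF), and with EF and RD in 5 (LPS_EF_RD). The labels call EF, PF and RD extracts and do not spell the names out. PF and RD came only on top of EF, so neither was examined by itself. No source used here gives the LPS dose, the hours from injection to collection, the animals' age or any vehicle for the controls. The design text speaks of biological replicates, and 1 batch label covers all libraries.

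LPS is a component of the outer membrane of gram-negative bacteria. In plasma it is passed by LPS-binding protein to Cd14, which hands it to the pair of Tlr4 and its partner Ly96 on macrophages and other cells. Tlr2, a related receptor, senses bacterial lipoproteins. Both receptors signal through Myd88 and kinases of the Irak family to NF-kB, a dimer of subunits such as Nfkb1 that Nfkbia, an IkB protein, holds in the cytoplasm. Relb is a subunit of the alternative NF-kB pathway. NF-kB in turn induces its own inhibitors, among them Nfkbia and Tnfaip3, a ubiquitin-editing enzyme, while Irak3 restrains the Irak step. In liver the pathway is best known from Kupffer cells, the resident macrophages, and hepatocytes secrete LPS-binding protein as part of the acute-phase response.

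Promoter sequence from RefSeq (build GRCr8, 250 bases before to 50 after the start site) was matched for 8 of the 10 genes, the exceptions being Ly96 and Relb. The kappaB motif, the DNA sequence that NF-kB dimers bind, was searched on both strands in a general consensus and in the stricter form GGGNNTTTCC. The general form was present in 5 of the 8 promoters (Tlr2, Irak3, Nfkbia, Tnfaip3 and Nfkb1), and in 7.51% of 33469 rat promoters of the same 300 bases. The strict form was present in 3 of the 8 (Nfkbia, Tnfaip3 and Nfkb1) and in 1.53% of those promoters. Each strict match in these 3 genes was also a general match. The promoters below are shown because these 4 genes pair a match with different responses to LPS: Tlr2 and Nfkb1 were called higher after LPS under every gavage, Tnfaip3 under only some, and Nfkbia under none. Each runs 5′ to 3′ on the gene's own strand, the minus strand for all 4, to 20 bases past the start site, and capitals mark the bases of a general match. The windows are chr2:171504538-171504807 for Tlr2, chr6:78597053-78597322 for Nfkbia, chr1:15543960-15544229 for Tnfaip3 and chr2:226805443-226805712 for Nfkb1.
Tlr2: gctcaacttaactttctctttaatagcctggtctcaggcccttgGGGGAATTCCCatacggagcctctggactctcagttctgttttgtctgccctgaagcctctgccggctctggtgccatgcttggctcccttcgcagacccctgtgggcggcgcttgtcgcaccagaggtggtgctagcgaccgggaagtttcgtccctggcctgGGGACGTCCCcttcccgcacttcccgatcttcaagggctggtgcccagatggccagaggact
Nfkbia: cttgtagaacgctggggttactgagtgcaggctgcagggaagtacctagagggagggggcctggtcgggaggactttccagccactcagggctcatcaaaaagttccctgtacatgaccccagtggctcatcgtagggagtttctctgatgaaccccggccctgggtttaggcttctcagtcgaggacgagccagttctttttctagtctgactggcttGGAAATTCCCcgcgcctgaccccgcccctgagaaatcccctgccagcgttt
Tnfaip3: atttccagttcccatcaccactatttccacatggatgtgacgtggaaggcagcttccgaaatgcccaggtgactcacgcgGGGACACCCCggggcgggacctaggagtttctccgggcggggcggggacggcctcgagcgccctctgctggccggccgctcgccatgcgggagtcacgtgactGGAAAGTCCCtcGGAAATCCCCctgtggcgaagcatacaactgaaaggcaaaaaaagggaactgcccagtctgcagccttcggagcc
Nfkb1: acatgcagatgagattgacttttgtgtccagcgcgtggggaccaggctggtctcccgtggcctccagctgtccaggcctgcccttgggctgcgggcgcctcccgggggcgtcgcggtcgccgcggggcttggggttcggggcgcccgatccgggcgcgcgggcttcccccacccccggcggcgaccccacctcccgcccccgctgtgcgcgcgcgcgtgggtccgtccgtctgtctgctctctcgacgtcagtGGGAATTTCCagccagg
Tlr2 carried 3 general matches, of which those starting 206 and 205 bases before the start site overlap, and the other starts 42 bases before it. The match of Nfkbia starts 31 bases before the start site. Tnfaip3 carried a general match 170 bases before the start site and strict matches 67 and 55 bases before it. The match of Nfkb1 lies 4 bases past the start site. These are matches of letters only, and no binding was measured.

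The libraries held 19716622 to 35835012 counted read pairs. Levels are given as CPM, read pairs relative to a library size that was scaled with TMM (trimmed mean of M values), and, where genes are compared with each other, as the deposited TPM, which also divide by gene length. The labels give hepatocyte as the cell type. Hepatocyte markers summed to between 130538 and 210664 CPM over the libraries, and markers of Kupffer cells and macrophages (14 genes, 275 to 1520 CPM), liver endothelium (12 genes, 199 to 636 CPM) and lymphocytes (13 genes, 21.7 to 106 CPM) were also present, so RNA of other cells was in the libraries. In such bulk samples, fewer cells of a type and less RNA per cell cannot be told apart. A few libraries stood apart. Exocrine pancreas markers reached 2181 CPM in control 5 and 1290 CPM in LPS 3, against 5.15 to 19.2 CPM elsewhere except 85.7 CPM in EF_RD 1. Skeletal muscle markers reached 3818 CPM in EF_RD 1 and 350 CPM in LPS 3, against at most 1.96 CPM elsewhere. Lbp, the gene of LPS-binding protein, was at 252 CPM in LPS_EF 7 and 255 CPM in LPS_EF_RD 6, against 2135 to 3793 CPM in the other LPS-injected libraries and 86.6 to 462 CPM without LPS. Without LPS it was highest in EF_RD 1 (462 CPM), EF 1 (422 CPM) and EF 5 (334 CPM), against 102 to 160 CPM in control. Neutrophil and monocyte markers summed to 171 CPM in EF 1 and 163 CPM in EF 2, against 29.6 to 109 CPM in control. Results below are therefore also given without control 5, LPS 3 and EF_RD 1, or without LPS_EF 7 and LPS_EF_RD 6. Lbp itself rose with LPS, so the second omission tilts toward a larger LPS effect. EF 1, EF 2 and EF 5 were kept in both. EF_RD 2 and 4 were unusually alike, with a chi-square per degree of freedom of 5.32 over genes against 22.1 for the next closest pair. That is still above sampling noise, and both were counted, as labelled. The measure cannot tell whether they came from different rats, so EF_RD may hold fewer independent animals than libraries.

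In control livers the 10 genes spanned a wide range of TPM. Nfkbia was at 37.6 ± 6.53 (SD, n = 5), Cd14 at 28.5 ± 10.5, Myd88 at 23.6 ± 4.96 and Nfkb1 at 14.0 ± 0.82 TPM. Irak3 followed at 4.59 ± 0.854, Ly96 at 2.83 ± 1.09, Tnfaip3 at 2.07 ± 0.724, Relb at 1.75 ± 0.511, Tlr2 at 1.11 ± 0.354 and Tlr4 at 0.891 ± 0.494 TPM. Along this order the control libraries of neighbouring genes overlapped except between Myd88 and Nfkb1 and between Nfkb1 and Irak3. In LPS livers Cd14 led at 114 ± 16.1 TPM (n = 5), above every library of Nfkbia, the next in order at 33.0 ± 14.0 TPM. Tlr2 had moved from the ninth to the fifth place at 7.82 ± 1.65 TPM, while Tlr4 stayed last at 1.29 ± 0.305 TPM. The ratio of Tlr2 to Tlr4 in TPM was 0.685, 1.49 and 1.95 (lowest, median, highest) in control and 4.26, 5.96 and 8.29 in LPS. Over all groups the ratio reached at most 1.95 without LPS and was at least 3.49 with it. The low genes rested on few reads: without LPS, Tlr2 had 20 to 89 counts per library, Tlr4 15 to 63, Ly96 13 to 47 and Relb 31 to 109, which limits the precision of their fold changes.

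The first comparison asks what LPS did to these genes without an extract. In LPS against control, 4 of the 10 genes were called higher and none lower (edgeR's quasi-likelihood test, adjusted p under 0.05 over all genes tested): Tlr2, Cd14, Ly96 and Nfkb1. Of all genes tested, 36.8% were called in this comparison and 18.6% were called higher. The median log2 fold change of the 10 genes was 0.20, against 0.00 for all genes. Without control 5, LPS 3 and EF_RD 1, 5 of the 10 were called, the same 4 higher and Nfkbia lower. Of all genes, 4896 of 14871 were called in that fit.

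Tlr2 was at 1.54, 2.38, 2.28, 3.34 and 2.0 CPM in control 3 to 7, and at 15.8, 16.1, 18.4, 11.3 and 12.7 CPM in LPS 1 to 5. Every LPS library lay above every control library, and the log2 fold change was 2.68 ± 0.33 (SE; 6.42-fold, adjusted p = 1.5e-06). Cd14 was at 19.2, 35.4, 42.6, 21.2 and 26.1 CPM in control 3 to 7 and at 123, 107, 88.8, 86.3 and 131 CPM in LPS 1 to 5. These groups did not overlap either, and the log2 fold change was 1.89 ± 0.24 (3.71-fold, adjusted p = 1.92e-06). Ly96, the partner of Tlr4, was at 1.21, 1.15, 1.21, 1.77 and 0.565 CPM in control and at 2.06, 2.81, 2.33, 1.60 and 2.62 CPM in LPS. LPS 4 fell below control 6, and the log2 fold change was 0.95 ± 0.29 (adjusted p = 0.0102), a call that no omission of a library ended. The receptor Tlr4 itself was at 0.838, 1.07, 2.93, 1.98 and 1.26 CPM in control and at 2.34, 2.40, 2.37, 2.34 and 1.35 CPM in LPS. Control 5, which carries the pancreas markers, was the highest of the 10 libraries, and LPS 5 lay among the controls. The log2 fold change of Tlr4 was 0.42 (95% interval −0.14 to 0.99, adjusted p = 0.24), and without control 5 it was called higher at 0.74 (adjusted p = 0.0322).

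**Figure D1:**
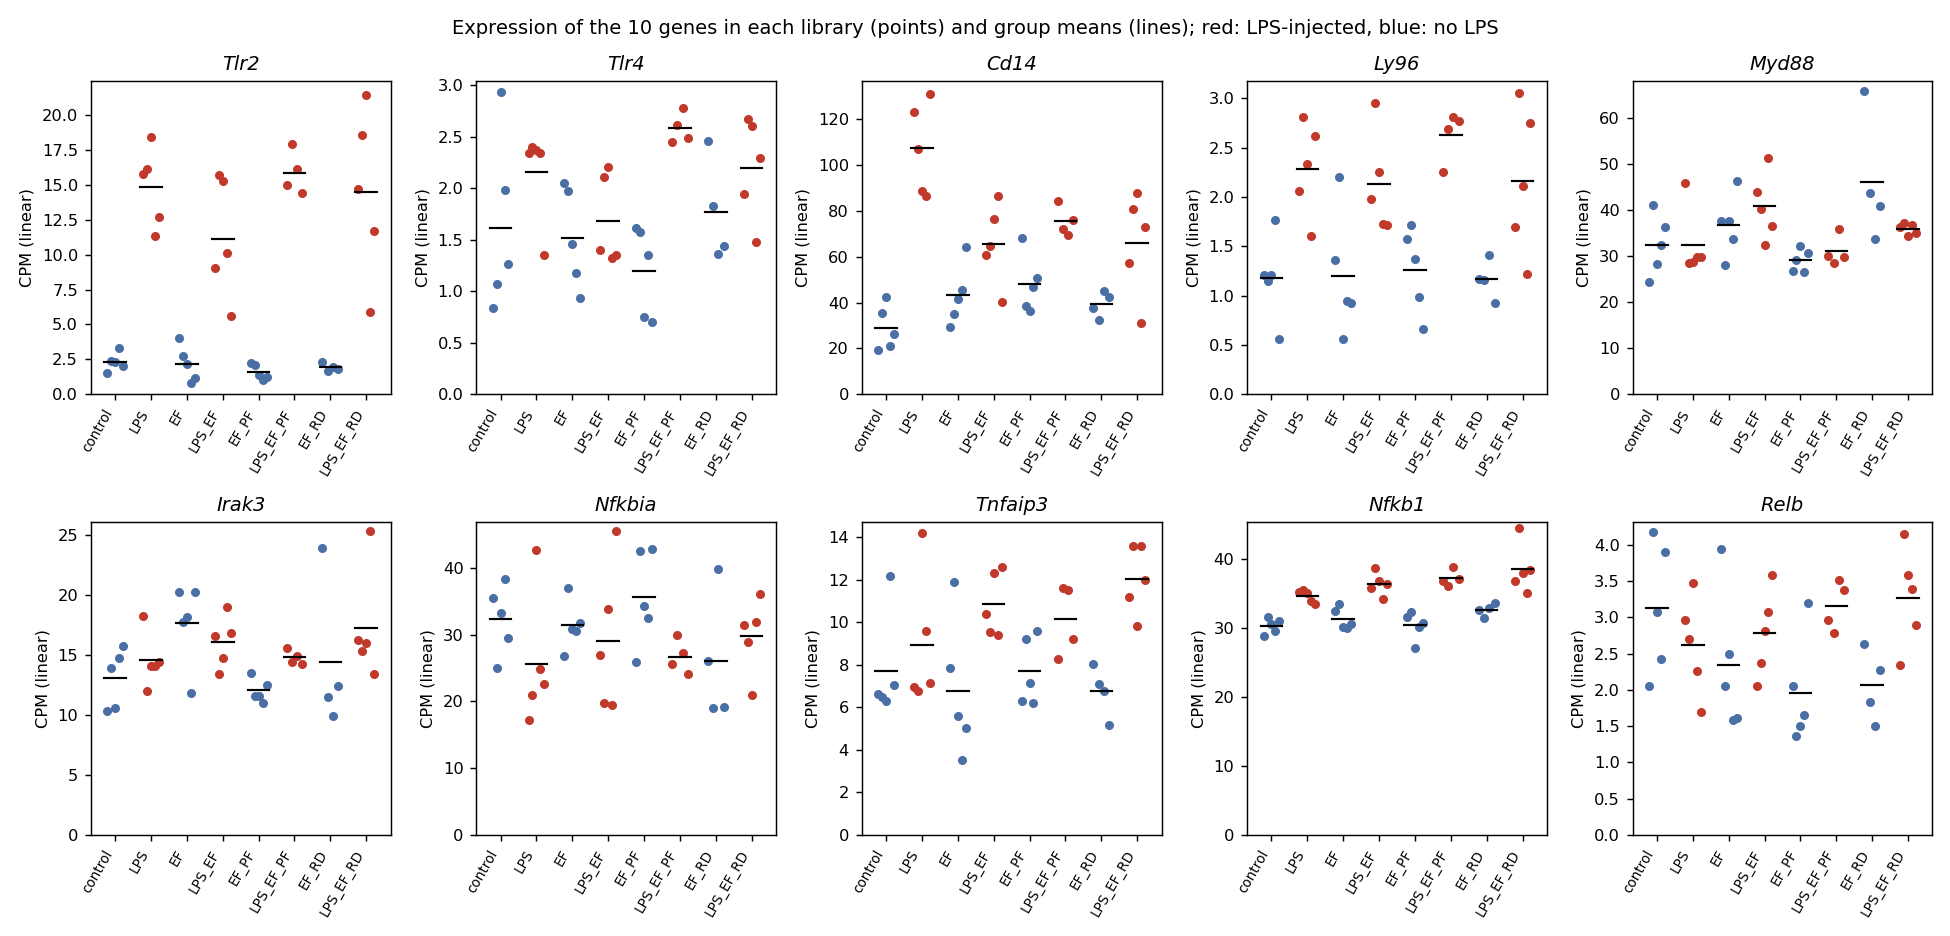
CPM of each of the 10 genes (vertical axis, linear, from 0) in every library (points) of the 8 groups (horizontal axis), with group means as lines; LPS-injected groups are red and the others blue. Tlr2 was at 0.788 to 4.05 CPM in the 19 libraries without LPS and at 5.57 to 21.4 CPM in the 19 with LPS. The points of every other gene overlap between red and blue, those of Nfkb1 only from 33.5 to 33.7 CPM.

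Downstream of the receptors, the adaptor Myd88 was at 32.5 ± 6.56 CPM in control and 32.5 ± 7.48 CPM in LPS (log2 fold change 0.00, 95% interval −0.32 to 0.32). Irak3 was at 13.1 ± 2.46 and 14.5 ± 2.23 CPM (0.15, −0.22 to 0.53). Neither was called. LPS 1 stood above the other LPS libraries in both, at 45.8 CPM for Myd88 and 18.2 CPM for Irak3.

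Among the inhibitors, Nfkbia was at 35.5, 25.0, 33.3, 38.3 and 29.5 CPM in control 3 to 7 and at 17.2, 20.9, 42.7, 24.8 and 22.6 CPM in LPS 1 to 5. Of the LPS libraries, 4 lay below every control library, and LPS 3, the one with pancreas and muscle markers, lay above them all. The log2 fold change was −0.33 (95% interval −0.79 to 0.12, adjusted p = 0.251). Without LPS 3 it was −0.60 and Nfkbia was called lower (adjusted p = 0.0313), and without all 3 libraries with pancreas or muscle markers it was −0.59 (adjusted p = 0.0484). Tnfaip3 was at 6.61, 6.51, 6.28, 12.2 and 7.04 CPM in control and at 6.97, 6.77, 14.2, 9.58 and 7.13 CPM in LPS. LPS 3 was again the highest, control 6 stood above the other controls, and the log2 fold change of 0.21 (−0.27 to 0.69) was not called (adjusted p = 0.518).

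Nfkb1, the subunit whose precursor is itself an IkB-type inhibitor, had the smallest change among the called genes and the least spread. It was at 28.9, 31.6, 30.6, 29.6 and 31.0 CPM in control 3 to 7 and at 35.3, 35.6, 35.1, 33.9 and 33.5 CPM in LPS 1 to 5. The groups did not overlap, and the log2 fold change was 0.19 ± 0.05 (1.14-fold, adjusted p = 0.00618). Scaling by total counts instead of TMM moved the median of all genes from −0.002 to 0.128 and Nfkb1 to 0.32, so a difference of this size stands relative to the median gene. Under that scaling 72% of the called genes were higher, against 50.6% under TMM, and the same 4 of the 10 genes were called. Relb, the subunit of the alternative NF-kB pathway, was at 3.13 ± 0.918 CPM in control and 2.62 ± 0.682 CPM in LPS (−0.25, −0.76 to 0.25) and was not called.

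Markers of other cells moved in the same comparison, in which 36.8% of all genes were called and 18.6% called higher. All 10 neutrophil and monocyte markers tested (of 14 in the table) were called higher, with a median log2 fold change of 3.18, and the 14 together summed to 29.6 to 109 CPM in control and 237 to 459 CPM in LPS. Elane, one of them, was at 0 in all control libraries. Kupffer cell and macrophage markers were called higher in 7 of 14, summing to 403 to 824 CPM in control and 811 to 1162 CPM in LPS. Liver endothelial markers were higher in 7 of 12, summing to 199 to 439 CPM in control and 469 to 588 CPM in LPS, lymphocyte markers in 7 of 13 with 1 lower, and hepatocyte markers were lower in 8 of 12. The part of these cells in the levels of Tlr2, Cd14, Ly96 and Nfkb1 was not tested.

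**Figure D2:**
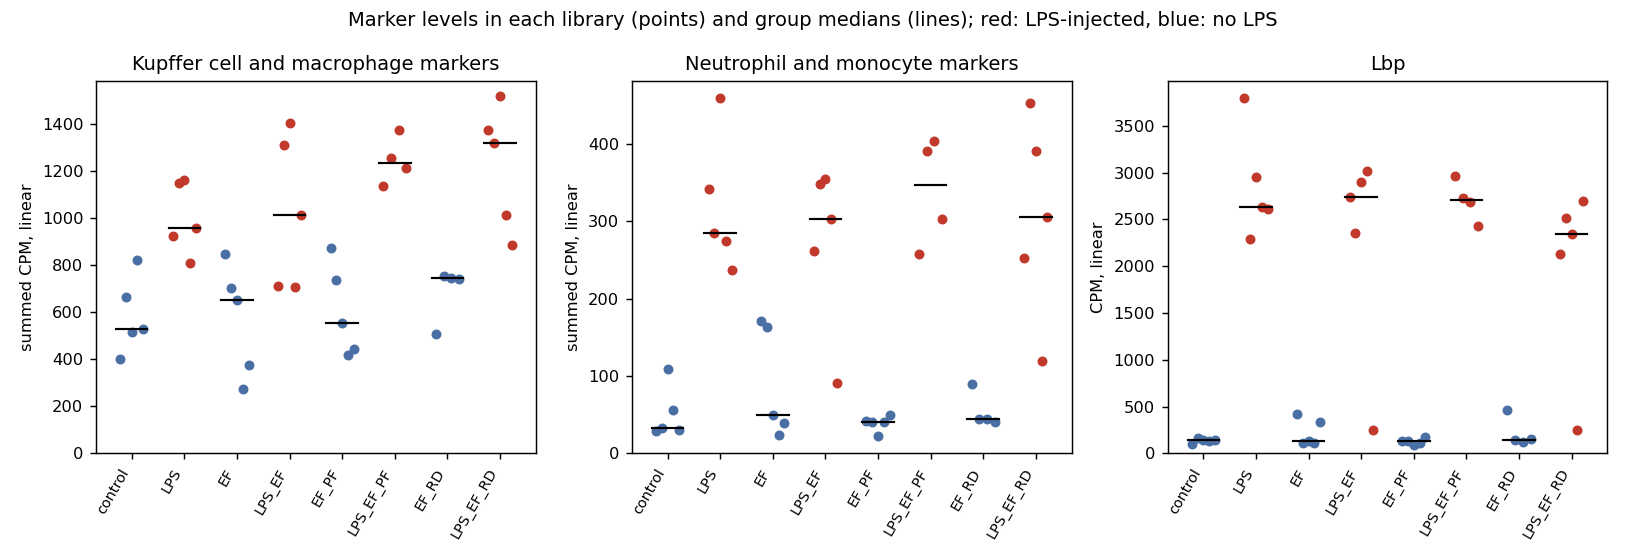
Summed CPM of 14 Kupffer cell and macrophage markers, summed CPM of 14 neutrophil and monocyte markers, and CPM of Lbp (vertical axes, linear, from 0) in each library (points) with group medians (lines); LPS-injected groups are red. LPS_EF 7 and LPS_EF_RD 6 stand apart in Lbp at 252 and 255 CPM, and also have the lowest neutrophil and monocyte sums of the LPS-injected libraries, at 90.5 and 119 CPM.

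The next comparisons ask whether LPS moved the genes in rats that also received an extract. In LPS_EF against EF 4 of the 10 were called higher (Tlr2, Ly96, Tnfaip3 and Nfkb1), where 29.1% of all genes were called and 14.6% called higher. In LPS_EF_PF against EF_PF 6 were called higher (Tlr2, Tlr4, Cd14, Ly96, Nfkb1 and Relb), where 36.5% of all genes were called and 19.2% called higher. In LPS_EF_RD against EF_RD 5 were called higher (Tlr2, Cd14, Ly96, Tnfaip3 and Nfkb1), where 23.5% of all genes were called and 12.8% called higher. None of the 10 was called lower. The medians of the 10 genes were 0.23, 0.53 and 0.49 on the log2 scale, against −0.02 for all genes each time. Under total-count scaling the share of called genes that were higher rose from 50.2% to 67.7%, from 52.6% to 78.5% and from 54.4% to 65.3%. Without LPS_EF 7 and LPS_EF_RD 6 the count in LPS_EF against EF was 5, with Cd14 added. Calls among all genes also rose there, from 4310 of 14786 to 5187 of 14766. In LPS_EF_RD against EF_RD it was 5 without LPS_EF 7 and LPS_EF_RD 6, where 4446 of 14766 genes were called in place of 3470 of 14786. Without EF_RD 1 and the other libraries with pancreas or muscle markers it was also 5, with Irak3 and Relb in place of Cd14 and Ly96. That fit called 3733 of 14871 genes.

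**Figure D3:**
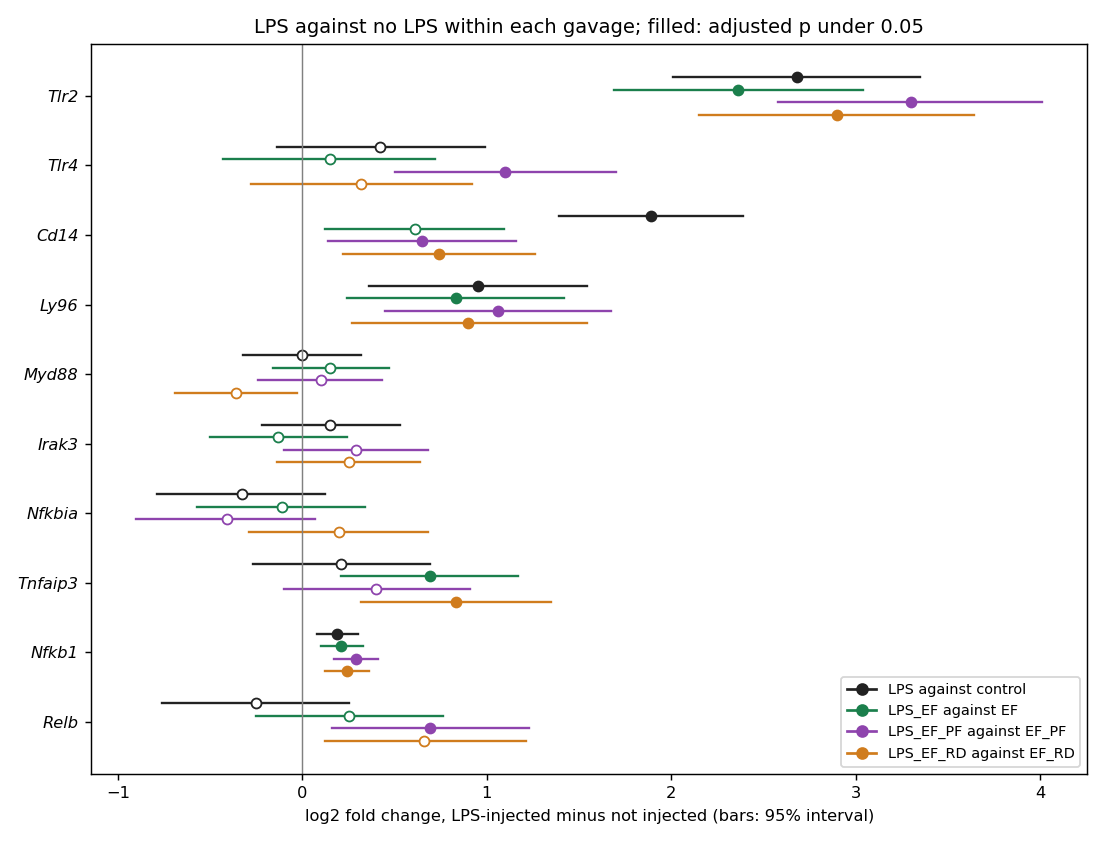
Log2 fold change of LPS-injected against not injected livers (horizontal axis) with its 95% interval for each gene (vertical axis), in rats without an extract and under EF, EF_PF and EF_RD; filled points have an adjusted p under 0.05. Tlr2 lies between 2.36 and 3.30 in all 4 comparisons and Nfkb1 between 0.19 and 0.29, whereas Cd14 is at 1.89 without an extract and at 0.61 to 0.74 with one.

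Tlr2 rose under every gavage. It was at 4.05, 2.72, 2.15, 0.788 and 1.18 CPM in EF 1 to 5 and at 9.02, 15.7, 15.3, 10.1 and 5.57 CPM in LPS_EF 3 to 7 (log2 fold change 2.36 ± 0.33, adjusted p = 1.04e-05). In EF_PF 1, 2, 3, 5 and 6 it was at 2.27, 2.07, 1.41, 0.989 and 1.27 CPM, and in LPS_EF_PF 1, 3, 4 and 6 at 15, 17.9, 16.1 and 14.4 CPM (3.30 ± 0.35, adjusted p = 2.53e-07). In EF_RD 1 to 4 it was at 2.29, 1.69, 1.94 and 1.84 CPM, and in LPS_EF_RD 1, 2, 4, 6 and 8 at 14.7, 18.6, 21.4, 5.88 and 11.7 CPM (2.90 ± 0.36, adjusted p = 8.47e-06). No group with LPS overlapped its counterpart. The lowest LPS-injected libraries were LPS_EF 7 and LPS_EF_RD 6, the same ones that had low Lbp. The 4 calls of Tlr2 held under every omission of a library and every other setting tried.

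Nfkb1 also rose in all 4 comparisons. It was at 30.1 to 33.5 CPM in EF against 34.2 to 38.7 CPM in LPS_EF (0.21 ± 0.05, adjusted p = 0.00375). It was at 27.1 to 32.4 CPM in EF_PF against 36.2 to 38.9 CPM in LPS_EF_PF (0.29 ± 0.06, adjusted p = 0.000198), and at 31.5 to 33.7 CPM in EF_RD against 35.2 to 44.6 CPM in LPS_EF_RD (0.24 ± 0.06, adjusted p = 0.00338). None of these groups overlapped. No omission of a library ended a call. Fitted on the groups compared alone, adjusted p was 0.0634 under EF and 0.0753 under EF_RD. Over the whole series, the 19 libraries without LPS lay between 27.1 and 33.7 CPM and the 19 with LPS between 33.5 and 44.6 CPM.

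The co-receptors were less stable under the gavages. Cd14 was at 29.5, 34.9, 41.7, 45.6 and 64.2 CPM in EF 1 to 5 and at 60.7, 64.6, 76.5, 86.3 and 40.3 CPM in LPS_EF 3 to 7. LPS_EF 7 lay among the EF libraries, and the log2 fold change of 0.61 ± 0.24 missed the threshold (adjusted p = 0.0527). It passed without EF 5 (adjusted p = 0.0155), without LPS_EF 7 (0.0168), and without both low-Lbp libraries (0.74, adjusted p = 0.00687). LPS_EF 7 was the lowest LPS_EF library in Cd14, and the low-Lbp libraries were picked by a gene that LPS raises. Leaving them out therefore tilts the fit toward a larger LPS effect and is no independent support for the call. With all libraries kept it also passed under total-count scaling (0.71, adjusted p = 0.0279), DESeq2 (0.61, 0.0381) and limma on TPM (0.69, 0.0289). In EF_PF 1, 2, 3, 5 and 6 Cd14 was at 68.1, 38.6, 36.5, 46.6 and 50.9 CPM, and in LPS_EF_PF 1, 3, 4 and 6 at 84.4, 72.0, 69.6 and 76.0 CPM (0.65 ± 0.25, adjusted p = 0.0405). These groups did not overlap, but the margin was small, and of 9 omissions only that of EF_PF 1 kept the call, with adjusted p of 0.0574 to 0.104 in the other 8 (EF_PF 2, 3, 5 or 6, or any LPS_EF_PF library). In EF_RD 1 to 4 it was at 37.8, 32.6, 45.1 and 42.4 CPM, and in LPS_EF_RD 1, 2, 4, 6 and 8 at 57.3, 80.8, 87.7, 31.1 and 73.1 CPM (0.74 ± 0.25, adjusted p = 0.0329). LPS_EF_RD 6 lay below every EF_RD library. The call was lost without EF_RD 1, 2 or 4 or LPS_EF_RD 2, 4 or 8 (adjusted p 0.0584 to 0.0988), and without the libraries with pancreas or muscle markers (adjusted p = 0.0563).

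Ly96 was at 0.559 to 2.2 CPM in EF and 1.72 to 2.95 CPM in LPS_EF (0.83 ± 0.29, adjusted p = 0.0291), and 3 LPS_EF libraries (3, 6 and 7) lay below the highest EF library, EF 2. That call was lost without EF 3, 4 or 5 or LPS_EF 4 or 5 (adjusted p 0.055 to 0.0973). It was at 0.658 to 1.72 CPM in EF_PF and 2.25 to 2.81 CPM in LPS_EF_PF, with no overlap (1.06 ± 0.30, adjusted p = 0.00606), and no omission ended this call. In EF_RD it was at 0.92 to 1.41 CPM and in LPS_EF_RD at 1.22 to 3.05 CPM (0.90 ± 0.31, adjusted p = 0.0329), lost without EF_RD 1, 2 or 4 or LPS_EF_RD 2, 4 or 8 (adjusted p 0.05 to 0.117). The size of the difference varied less than the calls: over the omissions in all 4 comparisons the log2 fold change of Ly96 stayed between 0.65 and 1.19.

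Tlr4 was called in 1 comparison. It was at 1.61, 1.58, 0.755, 1.35 and 0.705 CPM in EF_PF 1, 2, 3, 5 and 6 and at 2.45, 2.61, 2.78 and 2.49 CPM in LPS_EF_PF 1, 3, 4 and 6. The groups did not overlap, and the log2 fold change was 1.10 ± 0.29 (adjusted p = 0.00393), a call that no omission ended. Under EF it was 0.15 (95% interval −0.43 to 0.72) and under EF_RD 0.32 (−0.28 to 0.92), with overlapping groups. The difference between the LPS effect with EF_PF and that without an extract was 0.67 (−0.15 to 1.5, adjusted p = 0.989), so the effects were not shown to differ.

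Tnfaip3 was at 7.86, 11.9, 5.59, 3.51 and 5.03 CPM in EF 1 to 5 and at 10.4, 9.57, 12.3, 9.43 and 12.6 CPM in LPS_EF 3 to 7 (0.69 ± 0.24, adjusted p = 0.027). EF 2 lay among the LPS_EF libraries, and the call was lost without EF 3, 4 or 5 or LPS_EF 5 or 7 (adjusted p 0.0502 to 0.0884). In EF_RD 1 to 4 it was at 8.04, 7.08, 6.77 and 5.19 CPM, and in LPS_EF_RD 1, 2, 4, 6 and 8 at 11.2, 13.6, 9.83, 13.6 and 12.0 CPM, with no overlap (0.83 ± 0.25, adjusted p = 0.0163). This call was lost without EF_RD 4 (adjusted p = 0.0676). Under EF_PF the log2 fold change was 0.40 (95% interval −0.10 to 0.91) and was not called. LPS_EF 7 and LPS_EF_RD 6, the libraries with low Lbp and low Tlr2, were the highest or tied for the highest of their groups in Tnfaip3.

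Relb was at 2.06, 1.36, 1.51, 1.66 and 3.20 CPM in EF_PF 1, 2, 3, 5 and 6 and at 2.97, 2.79, 3.52 and 3.38 CPM in LPS_EF_PF 1, 3, 4 and 6 (0.69 ± 0.26, adjusted p = 0.0374). EF_PF 6 lay among the LPS_EF_PF libraries, and the call was lost in 7 of 9 omissions (EF_PF 1, 2, 3 or 5, or LPS_EF_PF 1, 4 or 6, adjusted p 0.0537 to 0.0972). Under EF_RD it was 0.66 ± 0.27 (adjusted p = 0.0669), called without EF_RD 1 (0.0434) or LPS_EF_RD 1 (0.0451). Myd88, Irak3 and Nfkbia were called in none of these 3 comparisons by the edgeR fit over all libraries. Irak3 under EF_PF was at 11 to 13.5 CPM without LPS and 14.2 to 15.6 CPM with it, with no overlap (0.29, 95% interval −0.10 to 0.68, adjusted p = 0.24). It was called there under total-count scaling (0.46, adjusted p = 0.0485), limma on TPM (0.40, 0.0499) and a fit of only the groups compared (0.31, 0.00539). That last fit also called Nfkbia lower under EF_PF (−0.39, adjusted p = 0.0445). Irak3 under EF_RD was called without EF_RD 1, the library with muscle markers, where it stood at 23.9 CPM against 9.94 to 12.4 CPM in the other EF_RD libraries (log2 fold change 0.60, adjusted p = 0.0112). Myd88 under EF_RD had a log2 fold change of −0.36 (95% interval −0.69 to −0.03, adjusted p = 0.106), and without EF_RD 3 it was called lower (adjusted p = 0.0391). Myd88 too was highest in EF_RD 1, at 65.9 CPM. The other EF_RD libraries were at 33.8 to 43.6 CPM and those of LPS_EF_RD at 34.3 to 37.2 CPM.

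Markers of other cells were also called higher with LPS under the gavages. Of all genes, 14.6%, 19.2% and 12.8% were called higher under EF, EF_PF and EF_RD, and 29.1%, 36.5% and 23.5% in either direction. Neutrophil and monocyte markers were higher in 8, 10 and 10 of the 10 tested under EF, EF_PF and EF_RD, and Kupffer cell and macrophage markers in 8, 9 and 7 of 14. Endothelial markers were higher in 10, 8 and 5 of 12, lymphocyte markers in 10, 10 and 7 of 13, and hepatocyte markers lower in 3, 9 and 2 of 12. Kupffer sums ran from 275 to 873 CPM in the gavaged groups without LPS and from 706 to 1520 CPM with it. The part of these cells in the calls above was not tested.

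The extracts were then compared without LPS. None of the 10 genes was called in EF against control (0.92% of all genes called), EF_PF against control (0.622%), EF_RD against control (1.52%), EF_PF against EF (0.162%) or EF_RD against EF (0.724%) with edgeR, DESeq2 or limma. At an unadjusted p under 0.05 stood 2, 2, 2, 2 and 0 of the 10 genes, beside 1679, 1856, 2416, 1814 and 2165 of all 14786 genes. DESeq2 gave an adjusted p to 13294 genes in EF_PF against control and 12439 in EF_PF against EF. A gene without one counted as not called. Myd88 in EF_RD came nearest: it was at 65.9, 43.6, 33.8 and 40.9 CPM in EF_RD 1 to 4 and at 24.4, 41.1, 28.3, 32.4 and 36.3 CPM in control 3 to 7 (log2 difference 0.50 ± 0.16, adjusted p = 0.107). EF_RD 1, with muscle markers, was the highest of all 38 libraries. Myd88 was called in this comparison without EF_RD 3 (adjusted p = 0.042) and with total-count scaling (0.0442). Irak3 was 0.43 higher in EF than in control (95% interval 0.06 to 0.80, adjusted p = 0.327) and 0.55 lower on the log2 scale in EF_PF than in EF (−0.92 to −0.17, adjusted p = 0.194). Relb was at 1.36 to 3.20 CPM in EF_PF and 2.05 to 4.18 CPM in control (−0.68, −1.19 to −0.16, adjusted p = 0.212).

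With LPS present the extracts were compared with LPS alone. None of the 10 was called in LPS_EF against LPS (0.108% of all genes called), LPS_EF_PF against LPS (0.0406%), LPS_EF_RD against LPS (0.0135%), LPS_EF_PF against LPS_EF (0.00676%) or LPS_EF_RD against LPS_EF (0%), again with edgeR, DESeq2 or limma. At an unadjusted p under 0.05 stood 2, 0, 2, 2 and 0 of them, beside 1452, 891, 1130, 1205 and 412 of all 14786 genes. These comparisons called few genes of any kind. DESeq2 gave an adjusted p to only 1313 genes in LPS_EF_PF against LPS_EF, and to 13579 in LPS_EF_RD against LPS. A gene without one counted as not called, so the lack of a DESeq2 call says little for LPS_EF_PF against LPS_EF. Tlr2 differed from LPS alone by −0.42 (95% interval −1.03 to 0.19) in LPS_EF, 0.09 (−0.55 to 0.73) in LPS_EF_PF and −0.04 (−0.64 to 0.57) in LPS_EF_RD. Nfkbia differed by 0.18 (−0.28 to 0.64), 0.06 (−0.42 to 0.54) and 0.22 (−0.24 to 0.67). Nfkb1 was 0.16 higher in LPS_EF_RD than in LPS (0.05 to 0.27, adjusted p = 0.449).

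Of the 10 genes, Cd14 had the lowest unadjusted p in each of the 3 interactions of LPS with a gavage, none of which passed after adjustment. With LPS it was at 107 ± 19.9 CPM in LPS, and at 65.7 ± 17.4 in LPS_EF, 75.5 ± 6.49 in LPS_EF_PF and 66.0 ± 22.5 CPM in LPS_EF_RD. The 5 LPS libraries ran from 86.3 to 131 CPM. All libraries of LPS_EF and LPS_EF_PF lay below them, although LPS_EF 6 and LPS 4 print the same rounded value of 86.3 CPM, and LPS_EF_RD 4 at 87.7 CPM overlapped them. The log2 differences from LPS were −0.71 (95% interval −1.19 to −0.22), −0.51 (−1.02 to 0.01) and −0.70 (−1.18 to −0.21), with adjusted p of 0.266, 0.839 and 0.438. Without LPS the control group had the lowest mean, with 28.9 ± 9.89 CPM in control, 43.2 ± 13.3 in EF, 48.1 ± 12.6 in EF_PF and 39.5 ± 5.49 CPM in EF_RD. Those log2 differences from control were 0.58 (0.09 to 1.07), 0.74 (0.25 to 1.23) and 0.45 (−0.06 to 0.96), with adjusted p of 0.306, 0.145 and 0.383.

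The test of whether an extract changed the LPS effect on Cd14 is the interaction term. It was −1.29 (95% interval −1.97 to −0.60) for EF, −1.24 (−1.95 to −0.53) for EF_PF and −1.15 (−1.85 to −0.44) for EF_RD. The unadjusted p-values of the edgeR test were 0.00055, 0.0011 and 0.00216, and adjusted over all genes they were 0.245, 0.357 and 0.336, so none passed. These 3 tests share the control and LPS libraries and are not independent of each other. Of all genes tested, 0.108%, 0.0812% and 0.128% were called in the 3 interactions, and none of the 10 was. At an unadjusted p under 0.05 stood 1, 2 and 2 of the 10 genes, beside 1016, 719 and 1109 of all 14786 genes. Across the omissions of single libraries the EF interaction of Cd14 ranged from −1.47 to −1.09, with adjusted p of 0.096 to 0.541, and for the other settings adjusted p was 0.0732 to 0.993. Without the 3 libraries with pancreas or muscle markers, or the 2 with low Lbp, no interaction of the 10 genes was called. The remaining interactions at an unadjusted p under 0.05 were those of Relb with EF_PF (0.95, 0.21 to 1.68, adjusted p = 0.925) and with EF_RD (0.92, 0.18 to 1.66, adjusted p = 0.557).

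**Figure D4:**
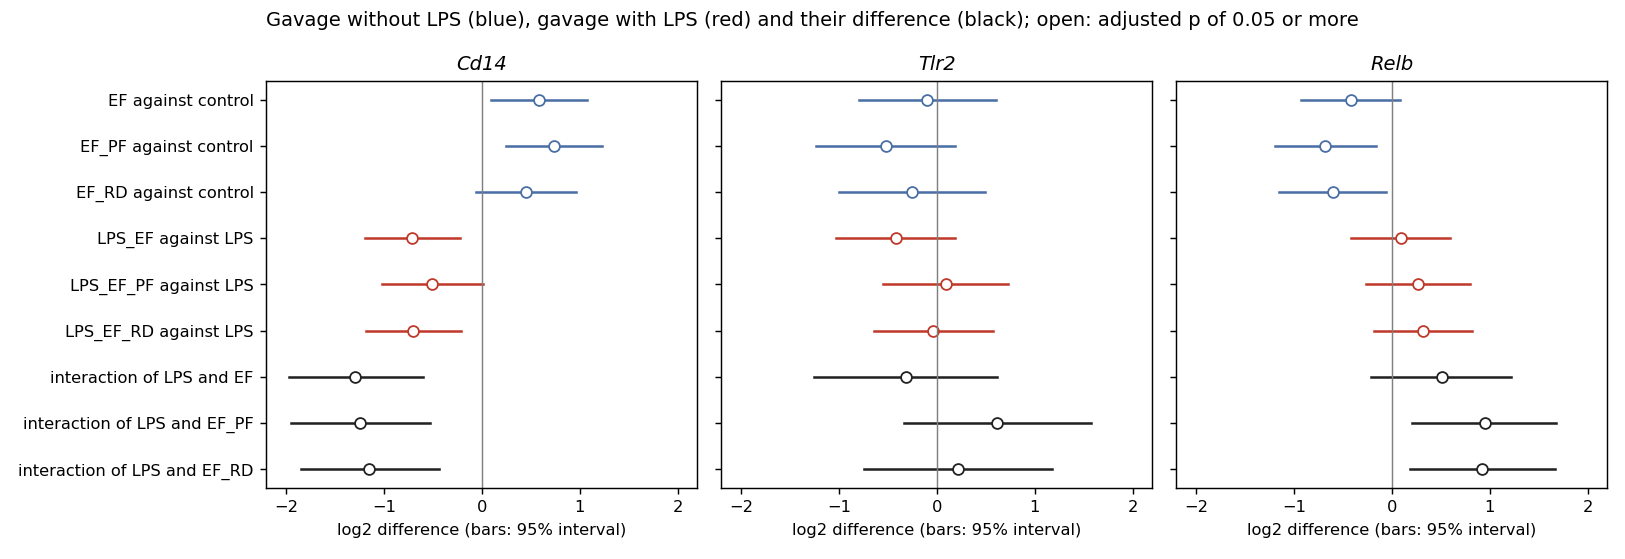
Log2 differences (horizontal axis) with 95% intervals for Cd14, Tlr2 and Relb: each gavage against control (blue), each gavage with LPS against LPS (red), and the interaction of LPS with each gavage (black); open points have an adjusted p of 0.05 or more. The 3 interactions of Cd14 lie between −1.29 and −1.15 with intervals below 0, and no point in the plot is filled.

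How the genes varied within groups was described by the correlation of their log2 CPM after the group means were subtracted, over the 38 libraries, which share tissue, depth and cell makeup. Over the 45 pairs of the 10 genes Pearson's r had a median of 0.15 and ran from −0.49 (Cd14 and Tnfaip3) to 0.67 (Myd88 and Irak3). Tlr2 went with Tlr4 (0.63), Ly96 (0.54) and Nfkb1 (0.52), and its r with Cd14 was 0.22. The inhibitors Nfkbia and Tnfaip3 went together (0.57), and Nfkbia ran against Myd88 (−0.40) and Cd14 (−0.37). Among genes averaging 2 CPM or more, the 3 most like Tlr2 included Tbxas1, thromboxane synthase (0.93), and Nckap1l, a blood-cell subunit of an actin-regulating complex (0.93). Most like Cd14 were Clu, the secreted chaperone clusterin (0.74), Rnf10 (0.71) and Gpr108 (0.68). The 3 most like Tlr4 included Camk2d (0.87) and Fry (0.84). Most like Nfkbia were Tsc22d3, a glucocorticoid-induced gene (0.84), Irf2bp2 (0.77) and Tob2 (0.77).

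The rest of the pathway was described by lists of genes. Of 15 other LPS and microbial sensors, 11 were called higher in LPS against control and none lower, and 10, 12 and 9 under EF, EF_PF and EF_RD. Their median log2 fold changes were 1.47, 1.21, 1.53 and 1.33, beside 0.00 to −0.02 for all genes. Of all genes tested, 18.6%, 14.6%, 19.2% and 12.8% were called higher in these 4 comparisons. Lbp rose from 135 ± 20.9 to 2853 ± 575 CPM in LPS against control (4.41 ± 0.54, adjusted p = 1.54e-06). Itgam, an integrin chain of neutrophils and macrophages, rose by 2.96 ± 0.52, Tlr1, which pairs with Tlr2, by 2.74 ± 0.43, and Tlr8, a sensor of RNA, by 2.55 ± 0.46. Under the gavages Lbp rose by 3.34 ± 0.52 with EF, 4.40 ± 0.55 with EF_PF and 3.17 ± 0.56 with EF_RD. Itgam rose by 3.59 ± 0.55 with EF_PF and 3.10 ± 0.57 with EF_RD, and Tlr1 by 2.40 ± 0.42 with EF. Itgam is also a gene of neutrophils and macrophages, whose marker lists had members called higher in the same comparisons (7, 8, 9 and 7 of 14 Kupffer cell and macrophage markers). The count in LPS against control was also 11 without the libraries with pancreas or muscle markers, where 4896 of 14871 genes were called.

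Of 20 signalling adaptors and kinases, 7 were higher and 3 lower in LPS against control, with a median log2 fold change of 0.05, and 3 were higher in each gavaged comparison, with 3, 2 and 1 lower. Of all genes tested, 36.8% were called in either direction in LPS against control. Under EF, EF_PF and EF_RD these shares were 29.1%, 36.5% and 23.5%. Without the 2 libraries with low Lbp, 5 were higher and 2 lower under EF_RD, where 4446 of 14766 genes were called. Map3k8, a kinase held by the Nfkb1 precursor, rose from 1.83 ± 0.197 to 3.85 ± 0.53 CPM (1.07 ± 0.23, adjusted p = 0.000543). Ticam2, the adaptor that carries Tlr4 signals from endosomes, rose from 1.37 ± 0.195 to 2.88 ± 0.556 CPM (1.07 ± 0.21, adjusted p = 0.000228). Unc93b1, which escorts Toll-like receptors to endosomes, rose by 1.06 ± 0.19 without an extract and by 1.11 ± 0.19, 1.29 ± 0.20 and 1.0 ± 0.20 under EF, EF_PF and EF_RD. Chuk, a catalytic subunit of the IkB kinase, fell from 73.3 ± 6.24 to 48.8 ± 4.20 CPM (−0.58 ± 0.11, adjusted p = 0.000201). Map3k8 rose by 0.75 ± 0.23 under EF and 1.08 ± 0.24 under EF_PF. Ticam2 rose by 0.68 ± 0.22 under EF_RD, a call lost without EF_RD 1 (adjusted p = 0.112), EF_RD 3 (0.0506) or LPS_EF_RD 2 (0.13). Without LPS, Ikbkg, the regulatory subunit of the IkB kinase, was higher in EF_PF than in control (0.57 ± 0.13, adjusted p = 0.0247), a call lost without control 3, 4 or 6 or EF_PF 3 or 5 (adjusted p 0.0572 to 0.0885). Limma on TPM (adjusted p = 0.0622) and a fit of only the groups compared (0.0929) did not make the call either.

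Of 9 other NF-kB subunits and IkB proteins, 3 were higher and none lower in LPS against control, with a median of 0.04. Beside them, 36.8% of all genes were called in either direction and 18.6% higher. Nfkbie, another IkB protein, rose from 3.77 ± 0.757 to 5.78 ± 0.899 CPM (0.61 ± 0.17, adjusted p = 0.00629). Nfkbiz, a nuclear IkB protein, was 0.79 ± 0.29 higher (adjusted p = 0.0299), which missed the threshold without control 4, 5 or 7 or LPS 1 or 2 (adjusted p 0.0521 to 0.0872). Under the gavages Nfkbie rose by 0.51 ± 0.17 with EF, 0.93 ± 0.18 with EF_PF and 0.73 ± 0.19 with EF_RD. The EF call of Nfkbie was lost without EF 3, 4 or 5 or LPS_EF 4 or 5 (adjusted p 0.0601 to 0.095). Bcl3, a nuclear IkB protein, was called lower under EF_PF (−1.44 ± 0.57, adjusted p = 0.0474) and EF_RD (−1.59 ± 0.54, adjusted p = 0.0319). The EF_PF call of Bcl3 was lost in 8 of its omissions (every EF_PF library but 2, and every LPS_EF_PF library, adjusted p 0.0516 to 0.124). The EF_RD call was lost without EF_RD 1 (adjusted p = 0.498) and without LPS_EF_RD 1, 2, 4 or 8 (0.0508 to 0.0795).

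Of 20 other negative regulators tested, 6 were higher and 2 lower in LPS against control (median 0.07), 4 and 1 under EF, 4 and 6 under EF_PF, and 3 and 0 under EF_RD. The shares of all genes called in either direction were 36.8%, 29.1%, 36.5% and 23.5%. Without the libraries with pancreas or muscle markers the first of these counts was 7 higher and 5 lower, and that under EF_RD was 5 and 3. Of all genes, 4896 and 3733 of 14871 were called there. Without the 2 libraries with low Lbp, the count under EF was 7 higher and 3 lower, and that under EF_RD 4 and 2. Calls among all genes also rose, to 5187 and 4446 of 14766. Il1r2, a decoy receptor for interleukin-1, rose from 0.169 ± 0.107 to 2.83 ± 0.533 CPM (4.06 ± 0.67, adjusted p = 3.04e-05), and by 2.46 ± 0.59, 4.70 ± 0.72 and 2.37 ± 0.63 under EF, EF_PF and EF_RD. Zc3h12a, an RNase that degrades cytokine transcripts, rose by 1.32 ± 0.29 without an extract and by 0.89 ± 0.28, 1.10 ± 0.30 and 0.88 ± 0.30 under the gavages. The Zc3h12a call under EF was lost without EF 3 or 4 or LPS_EF 6 (adjusted p 0.0517 to 0.058), and that under EF_RD without EF_RD 2, 3 or 4 or LPS_EF_RD 1, 2 or 4 (0.0573 to 0.135). Socs3, an inhibitor of cytokine receptor signalling, was 2.09 ± 0.63 higher, and missed the threshold without LPS 1 (adjusted p = 0.0876). Sigirr, an inhibitory receptor of the interleukin-1 family, fell by 0.32 on the log2 scale (SE 0.10, adjusted p = 0.0137), and under total-count scaling it was not called (adjusted p = 0.108). Traf1, an adaptor of tumour necrosis factor receptors, was higher in EF_PF than in control (0.96 ± 0.23, adjusted p = 0.0357) and than in EF (1.05 ± 0.23, adjusted p = 0.0444). The call against control was lost without control 4, 6 or 7 or EF_PF 1, 5 or 6 (adjusted p 0.0586 to 0.157). The call against EF was lost in 8 of its omissions, all but those of EF 2 and EF_PF 3 (adjusted p 0.0502 to 0.134). Both Traf1 calls were also lost under total-count scaling, no filter on low counts, the replicate number as a block, limma on TPM and a fit of only the groups compared. In these fits adjusted p was 0.0546 to 0.1 against control and 0.0761 to 0.242 against EF.

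Of 19 NF-kB-induced cytokines and adhesion molecules tested, 8 were higher and 1 lower in LPS against control, with a median of 0.68. Under EF 4 were higher and 2 lower, under EF_PF 10 and 0, and under EF_RD 7 and 1. The shares of all genes called in either direction were 36.8%, 29.1%, 36.5% and 23.5% in these comparisons. Tnf, Il6, Sele, Nos2 and Csf3, known targets of the pathway, were too low to test, with at most 3, 2, 11, 4 and 3 counts in any library. Sod2, the mitochondrial superoxide dismutase, rose from 81.7 ± 4.27 to 518 ± 51.5 CPM (2.67 ± 0.32, adjusted p = 9.89e-07) and by 2.2 ± 0.31, 2.65 ± 0.33 and 2.29 ± 0.34 under EF, EF_PF and EF_RD. Il1b, interleukin-1 beta, rose by 2.23 ± 0.30 without an extract, 1.63 ± 0.29 under EF and 2.57 ± 0.31 under EF_PF, and Il1a by 0.99 ± 0.23 without one. Cxcl10, a chemokine that interferons induce, fell from 2.56 ± 0.573 to 0.903 ± 0.309 CPM (−1.50 ± 0.33, adjusted p = 0.000798). Cxcl1, a neutrophil-attracting chemokine, was called higher in EF_RD than in control (4.92 ± 1.25, adjusted p = 0.0364) and lower in LPS_EF_RD than in EF_RD (−3.11 ± 1.11, adjusted p = 0.0394). Both calls of Cxcl1 rested on EF_RD 1: without it adjusted p was 0.94 and 0.348, and the second difference turned to 1.45. The first call was also lost without any 1 of the 5 control libraries (0.0555 to 0.0944), and the second without LPS_EF_RD 1, 2, 4 or 8 (0.0557 to 0.0849).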

How the data were processed

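RNA was sequenced from 38 livers in 8 groups. The deposited counts are read pairs per gene from featureCounts 2.0.6 on an rn6 RefSeq annotation, with no strand or multi-mapping option, per the file headers. The authors also deposited TPM, and STAR, RSEM and mRatBN7.2 are named in the submitters' processing notes. The TPM equal length-scaled counts, with a largest difference of 0.0495% over 432813 values of at least 1 TPM in 31011 shared genes. These builds differ from GRCr8, the build of the RefSeq promoters, and the printed positions are those of GRCr8. Read depth was 19716622 to 35835012 pairs, which limits the low genes most. Genes were filtered with edgeR's filterByExpr (minimum count 10, minimum total 15), scaled by TMM and fitted with the quasi-likelihood test over all 38 libraries (30 residual degrees of freedom, edgeR 4.0.16, R 4.3.3). There were 17 two-sided comparisons, with Benjamini-Hochberg adjustment over 14786 genes and calls at 0.05. CPM use these scaled library sizes. The log2 CPM behind the correlations use a prior count of 2, and the fold changes use edgeR's default. Standard errors were derived from the fold change and the F statistic of the same fit. The 95% intervals use a t distribution with the 30 residual degrees of freedom, and both are approximate.

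Named were all 10 genes, the 4 genes of each of 5 pathway lists with the largest called change in LPS against control (at least 2 CPM in the higher group), up to 2 in other comparisons, and the 3 genes most like Cd14, Tlr2, Tlr4 and Nfkbia. Some genes that this rule names are not reported here. Genes and lists were chosen with earlier results of these data known. Alternatives were total-count scaling, DESeq2 1.42.0, no filter, the replicate number as a block, limma 3.58.1 on log2(TPM + 1), a fit of only the groups compared, and leaving out each library. A further 2, leaving out libraries that stood apart, were added after seeing the data. The fit was tested on simulated data. P-values weigh a difference between groups against the spread between libraries, which the main fit estimated over all 8 groups together.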

Additional observations from a re-analysis of the deposited data

Results flagged for a closer look

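In 4 of 80 sets of 1 gene in 1 group, a single library lay far from the rest of its group, and chance flags about 1 in 20 such sets. Tlr4 was at 1.35 CPM in LPS 5, against 2.34 to 2.40 CPM in the other LPS libraries. Myd88 was at 45.8 CPM in LPS 1, against 28.4 to 29.8 CPM. Irak3 was at 25.3 CPM in LPS_EF_RD 6, against 13.4 to 16.2 CPM in the rest of that group, and this library also had low Lbp (255 CPM). Tnfaip3 was at 12.2 CPM in control 6, against 6.28 to 7.04 CPM in the other controls.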

How the results depend on the processing

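For the 10 genes, 2872 values under the alternatives listed first stayed on the same side of the threshold, 50 lost a call and 18 gained one, and under the 2 alternatives added later 194, 2 and 4 did. A missing adjusted p counted as not called, and direction was compared only where a call was made. The number called in LPS_EF against EF was 4, with 1 when only the groups compared were fitted, 5 under each of total counts, DESeq2, the replicate block and limma on TPM (Cd14 added each time, adjusted p 0.0199 to 0.0381), and 2 to 4 when single libraries were left out. In LPS_EF_PF against EF_PF it was 6, with 4 to 8 under the alternatives. In LPS_EF_RD against EF_RD it was 5, with 2 when only the groups compared were fitted, 3 with the replicate block and 2 to 6 when single libraries were left out. In EF_RD against control it was 0, with 1 under total counts and 0 to 1 when single libraries were left out. Cxcl1 in LPS_EF_RD against EF_RD turned from −3.11 to 1.45 without EF_RD 1 and to 1.43 without the 3 libraries with pancreas or muscle markers, and ran from −3.53 to 1.45 when single libraries were left out. The replicate numbers did not pair the samples: over 88 same-number pairs the correlation of deviations was −0.247 to 0.453 (median 0.0185, 24 over 0.1), and 5 libraries correlated best with one of their own number. With the replicate block, 3 of the 10 genes were called in LPS against control, Ly96 missing the threshold (adjusted p = 0.0857), and 3565 of all genes in place of 5435. Of all genes, fitting only the groups compared called 2127 in place of 4310 in LPS_EF against EF, 1692 in place of 3470 in LPS_EF_RD against EF_RD, 35 in place of 136 in EF against control and 16 in place of 225 in EF_RD against control. DESeq2 called 265, 239 and 409 genes in EF, EF_PF and EF_RD against control, in place of 136, 92 and 225. The TPM fit called 58 and 96 in EF_PF and EF_RD against control, and the fit without a filter 61 in EF_PF against control. Without the 3 libraries with pancreas or muscle markers EF_RD against control called 54. In the other 10 comparisons 0 to 107 of all genes were called, and 0 to 221 under the alternatives, where EF_RD against EF called 221 with DESeq2 and 0 when only the groups compared were fitted. Total counts moved the share of higher calls from 56.4% to 82.9% in EF_RD against control and from 67.3% to 91% in EF_RD against EF. The cause of these shifts was not tested. Depth limits Tlr2, Tlr4, Ly96 and Relb most, which had at most 109 counts per library without LPS.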
